A study of Mus musculus with 70 samples.

Results

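Bmal1, Clock, Npas2, Rora and Rorb are 5 genes of the activating side of the circadian clock, and they were taken by name from a deposited table of 14260 genes measured in the mouse hippocampus. The clock is a loop in which BMAL1 pairs with CLOCK, or with its close relative NPAS2, and switches on the period and cryptochrome genes, whose proteins then block the pair. A second arm acts on Bmal1 itself: the nuclear receptors RORα and RORβ (from Rora and Rorb) activate it, and the receptors REV-ERBα and REV-ERBβ (from Nr1d1 and Nr1d2), which read the same DNA element, repress it. In the forebrain NPAS2 can stand in for CLOCK, and Rora and Rorb are also known for roles in the thalamus, cortex and cerebellum that have nothing to do with time of day.

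The series asked whether restricting the hours of feeding changes brain transcription in a mouse model of Alzheimer disease. RNA came from the hippocampus of one hemibrain per mouse, of 37 APP23 transgenic mice (TG, the line B6.Cg-Tg(Thy1-APP)3Somm/J, in which the neuronal Thy1 promoter drives a human APP transgene) and 32 non-transgenic littermates (NTG). Each genotype was split between food at all hours (ad libitum, ALF) and time-restricted feeding (TRF), with food offered 6 h a day between ZT15 and ZT21. ZT is Zeitgeber time in h, with lights on at ZT0 and off at ZT12. All mice were singly housed. The restriction started at an age of 6 to 9 months, and hippocampi were collected at 10 to 13 months. The labels give no mouse's sex. At ZT0, ZT6, ZT12 and ZT18 there were 7, 1, 6 and 2 NTG mice on ALF, 6, 2, 6 and 2 NTG mice on TRF, 6, 4, 6 and 3 TG mice on ALF, and 6, 4, 5 and 3 TG mice on TRF. Comparisons between feedings in NTG at ZT6 and ZT18 were therefore not tested.

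Values are normalized counts, that is, read counts that the authors divided by one factor per library. The libraries held 27.9 to 47.1 M reads in listed genes (median 37.2 M). Thy1 stood at 14727 to 29068 in NTG and at 101986 to 171318 in TG, without overlap. The 10 marker genes of hippocampal neurons summed to between 30591 and 44109 in every mouse, and none of the 10 was at 0 in any mouse. Summed choroid plexus markers ran from 1201 to 237230 (median 99614). In bulk tissue fewer cells of a type and less RNA per cell cannot be told apart.

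Before the results, 2 features of the libraries matter. All 21 mice of ZT6 and ZT18 carry animal numbers of the third number series (first digit 3 of a 3-digit number), against 3 of the 48 mice of ZT0 and ZT12, so a difference between these pairs of times and a difference between number series cannot be told apart. And the 5 libraries of lowest median correlation with the others were followed, where 5 is a set number and no cut-off was used. They are NTG mice A and B and TG mice C and D, all on ALF at ZT0, and TG mouse E on TRF at ZT12. They differed in the balance between long and short transcripts. A length index was taken as the mean log2 level of the 1377 genes with the longest exon sequence (10.1 kb or more) minus that of the 1377 with the shortest (1.83 kb or less), centred on 0. It was 1.16, 1.03, 0.67 and 0.68 in mice A, B, C and D and -0.68 in mouse E. A TG mouse on TRF at ZT6 that is not among these 5 had -0.65. The correlation of the index with the second principal component (18.3% of the variance) was 0.98 in size.

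The letters through which ROR and REV-ERB receptors reach Bmal1 can be read in the reference promoter, and they are shown because Bmal1 is the member that passed the test between ZT0 and ZT12 within each of the 4 groups. Promoter windows of RefSeq (GRCm38.p6), reaching from upstream to just past each start site, were searched on both strands for 3 forms of the core that these receptors read, namely TAGGTCA, then the form with a changed second base, TGGGTCA, and then the form with a changed sixth base, TAGGTTA. The E-box that BMAL1 pairs read, CACGTG, was searched for as well. Among the windows of the 5 genes, Bmal1 alone held matches, 1 of TAGGTTA and 1 of TAGGTCA, which did not overlap, on the strand of the gene. Both lie at the Bmal1 start site at position 113207511 of chromosome 7, the first beginning at base -6 and the second at base 31, where the start site itself is base 1 and the base before it is base -1. In capitals is the matched core.
Bmal1, chr7:113207494-113207523, plus strand: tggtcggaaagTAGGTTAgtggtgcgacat
Bmal1, chr7:113207530-113207559, plus strand: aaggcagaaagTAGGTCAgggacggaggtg
Of all 32851 promoter windows of this kind, 1.44% held TAGGTTA, 2.61% held TAGGTCA, 3.98% held TGGGTCA and 7.15% held CACGTG. A match is a description of the reference sequence, and the windows without one say only that these letters are not in them.

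By level per kilobase of exon, Clock and Npas2 were the most abundant of the 5 genes, at a mean of 275 and 251 normalized counts per kb over the 69 mice. Bmal1 followed at 154, Rorb at 80.3 and Rora at 25.4. In GRCm38 (GENCODE M21) Bmal1, annotated there as Arntl, lies on chromosome 7 from 113207465 to 113314126. Clock lies on chromosome 5 from 76209868 to 76304792, Npas2 on chromosome 1 from 39193731 to 39363236, Rora on chromosome 9 from 68653786 to 69388246 and Rorb on chromosome 19 from 18930605 to 19111196. The genes also differed in how much mice of one group and time varied: the residual SD on the log2 scale was 0.15 for Bmal1, lower than in most genes (20.8th percentile), 0.25 for Clock, 0.26 for Npas2, 0.35 for Rorb and 0.47 for Rora (92.2nd percentile), beside a median of 0.21 over all genes.

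**Figure D1:**
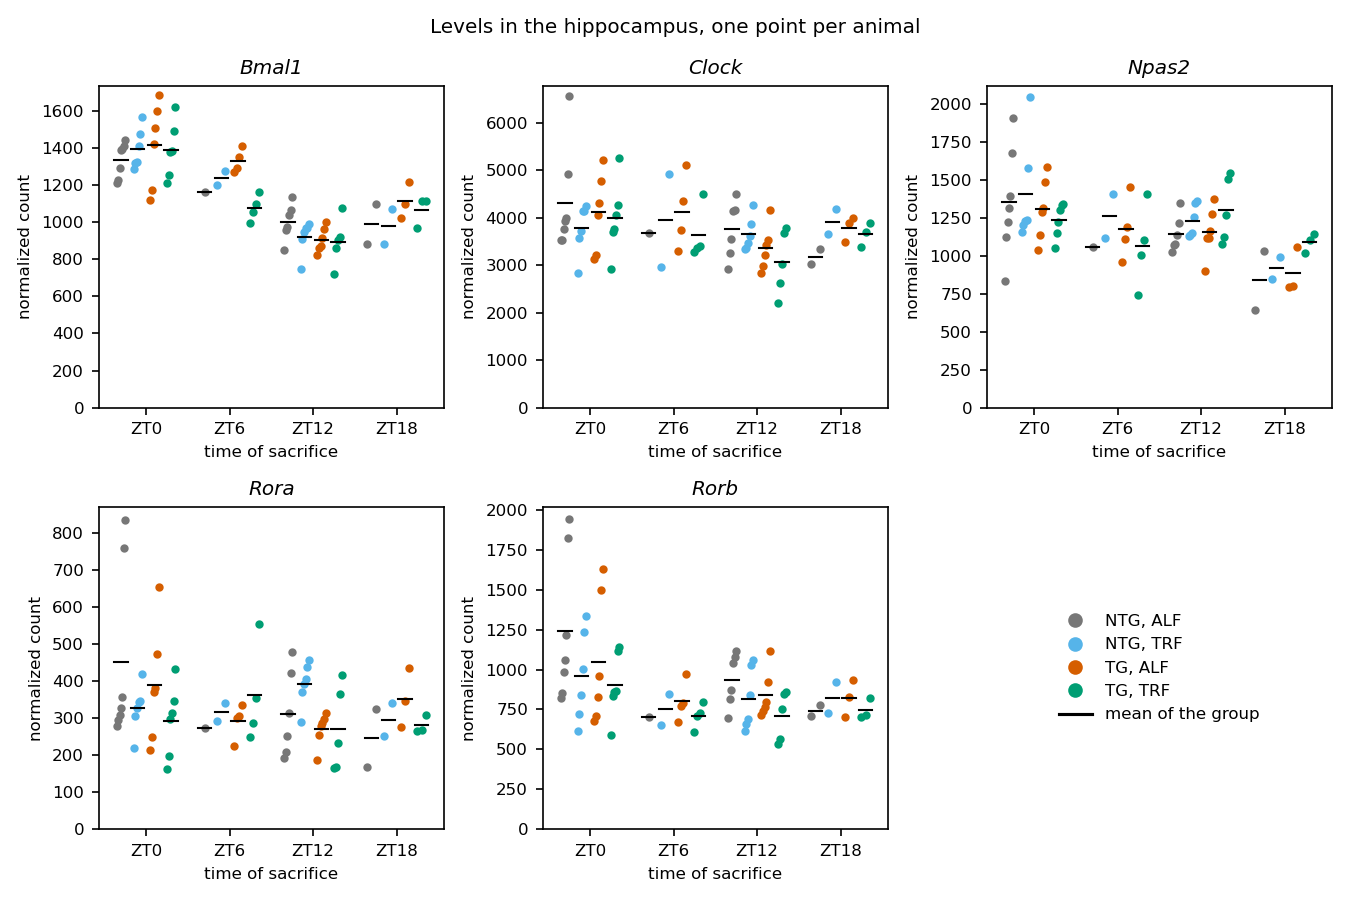
Normalized counts of the 5 genes by time of sacrifice, 1 point per mouse, coloured by genotype and feeding, with a line at the mean of each group. Bmal1 runs from 1123 to 1688 at ZT0 and from 719 to 1137 at ZT12, while the other 4 genes overlap widely between times. All 5 genes have their highest mouse at ZT0.

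Bmal1, whose product pairs with CLOCK or NPAS2, was highest at lights on in all 4 groups and lowest at lights off in 3 of them. In NTG on ALF the mean was 1004 at ZT12 and 993 in the 2 mice of ZT18. In NTG on ALF it ran from 1211 to 1444 (median 1392, n = 7) at ZT0 and from 850 to 1137 (median 1007, n = 6) at ZT12. In NTG on TRF it ran from 1288 to 1568 (median 1368, n = 6) at ZT0 and from 750 to 991 (median 959, n = 6) at ZT12. These ranges do not meet in either group. In TG on ALF the range was 1123 to 1688 (median 1466, n = 6) at ZT0 and 823 to 1004 (median 893, n = 6) at ZT12. In TG on TRF it was 1213 to 1622 (median 1384, n = 6) at ZT0, and the 5 mice of ZT12 had 719, 859, 904, 921 and 1075. Again the 2 times did not overlap. Non-overlap with the lower values at ZT12 was found for 0.771% and 0.484% of all genes in NTG on ALF and on TRF, and for 1.07% and 1.39% in TG on ALF and on TRF.

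Averaged over the 4 groups, Bmal1 fell by 0.57 ± 0.04 (SE) on the log2 scale from ZT0 to ZT12, to 0.672 of its level (limma, adjusted p = 7.77e-16, with Benjamini-Hochberg adjustment over 14260 genes here and below, threshold 0.05). It passed the test within each group too, falling by 0.42 ± 0.08 in NTG on ALF (limma, adjusted p = 0.00222), 0.60 ± 0.09 in NTG on TRF (adjusted p = 1.55e-05), 0.63 ± 0.09 in TG on ALF (adjusted p = 2.04e-06) and 0.64 ± 0.09 in TG on TRF (adjusted p = 3.60e-06). None of the other 4 genes passed within any group. The count is thus 1 of 5 in each group, where 2.17% of all genes were called in NTG on ALF, 0.596% in NTG on TRF, 2.22% in TG on ALF and 3.55% in TG on TRF.

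**Figure D2:**
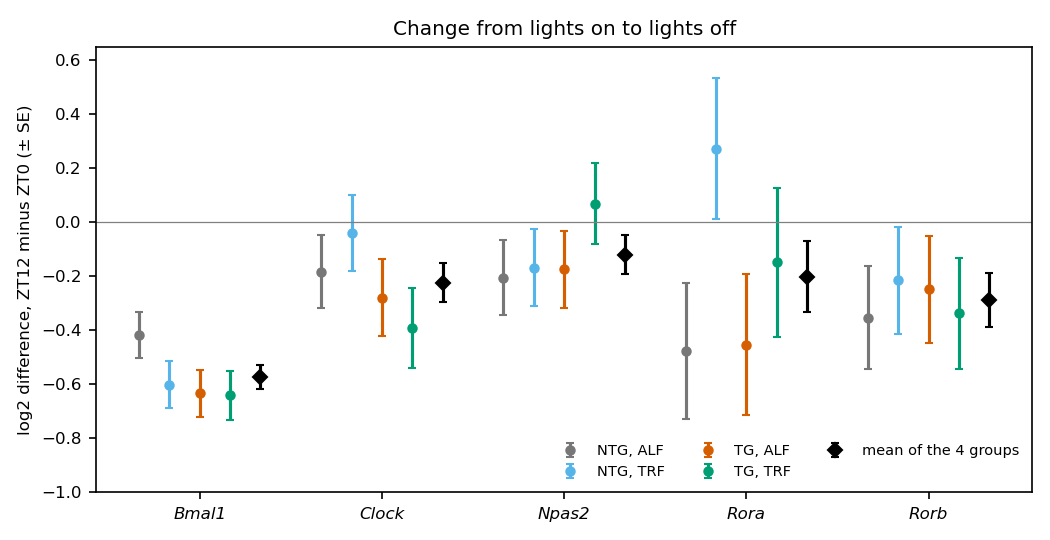
Log2 difference between ZT12 and ZT0 for each gene, in each group (circles) and as the mean of the 4 groups (diamonds), with the SE as bars. For Bmal1 the 4 groups lie between -0.64 and -0.42, and for Rora they lie on both sides of 0.

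The drop of Bmal1 was smallest in NTG on ALF, but no difference between groups passed the test. TRF minus ALF, the change differed by -0.18 in NTG (95% confidence interval -0.43 to 0.06, limma, adjusted p = 0.995) and by -0.0073 in TG (-0.26 to 0.25, adjusted p = 0.9998). TG minus NTG, it differed by -0.22 on ALF (-0.46 to 0.03, adjusted p = 0.99999) and by -0.04 on TRF (-0.29 to 0.21, adjusted p = 0.9998). The intervals reach as far as -0.46, so the data do not show that the groups were alike. No gene of the 14260 was called in any of these 4 tests (0% in each), while 2.84%, 2.33%, 2.27% and 4.38% of genes had an unadjusted p under 0.05.

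Over all 4 times, 3 of the 5 genes varied with the time of sacrifice, Bmal1 (limma F test, adjusted p = 2.07e-15), Npas2 (adjusted p = 3.14e-04) and Rorb (adjusted p = 0.0128), where 35.6% of all genes did. Clock (adjusted p = 0.0543) and Rora (adjusted p = 0.491) did not pass, and Clock did pass with the number series as a covariate (adjusted p = 0.00366) and under 5 other settings (adjusted p from 0.0428 to 0.0488). The ranges between the highest and the lowest time were 0.57 for Bmal1, 0.49 for Npas2, 0.37 for Rorb, 0.22 for Clock and 0.22 for Rora on the log2 scale, beside a median of 0.20 over all genes. Bmal1 passed also within TG mice alone (adjusted p = 1.81e-07), in a limma fit of those mice. Npas2 and Rorb did not, at an adjusted p of 0.0598 for Npas2 and 0.157 for Rorb. In the mice of the third number series alone the ranges were 0.53 for Bmal1, 0.35 for Npas2 and 0.49 for Rorb. That series held 2 mice at ZT0, both TG on TRF, and 1 mouse at ZT12, NTG on ALF. These times thus rest on mice of different groups, and that fit cannot decide whether the genes varied with time.

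Over all groups Bmal1 averaged 1208 at ZT6 and 1048 at ZT18, both between its mean of 1385 at ZT0 and that of 934 at ZT12. The only NTG mouse on ALF at ZT6 had 1165, and both on TRF had 1202 and 1278. At ZT18 both NTG mice on ALF had 885 and 1101 and both on TRF had 883 and 1074. Over all groups Bmal1 was 0.20 ± 0.06 lower at ZT6 than at ZT0 (limma, adjusted p = 0.0141), and it was 0.38 ± 0.06 lower at ZT12 than at ZT6 (adjusted p = 1.06e-05). Of all genes 15.9% and 2.51% were called in these contrasts. With the number series as a covariate, these differences were 0.32 and 0.24 in the same direction and no longer passed (adjusted p = 0.0664 and 0.307). The first was lost with equal library totals as well (adjusted p = 0.0621). ZT18 was 0.17 ± 0.06 above ZT12 (limma, adjusted p = 0.0494), where 11.2% of all genes were called. That call held in 23 of 69 fits that left out 1 mouse each, and the difference was 0.04 with the number series as a covariate (adjusted p = 0.873) and 0.17 with equal upper quartiles (adjusted p = 0.0625). ZT18 against ZT6, which lies within the third series, was -0.21 ± 0.07 (limma, adjusted p = 0.0474, with 8.04% of all genes called). That call held in 53 of the 69 fits that left out 1 mouse, with adjusted p from 0.0265 to 0.110, and was lost with equal library totals (-0.19, adjusted p = 0.113) and with array weights (-0.14, adjusted p = 0.0795). A 24 h cosine fitted to all groups put the Bmal1 peak at ZT 1.3 ± 0.4 h (SE), with a distance from peak to trough of 0.61 ± 0.05 on the log2 scale. The cosine called 30.2% of all genes and 3 of the 5 members, Bmal1 (limma, adjusted p = 2.21e-16), Clock (adjusted p = 0.0308) and Rorb (adjusted p = 0.0460). It called 1 of the 5, Bmal1, when mouse B, C or E was left out. Over the 69 fits that left out 1 mouse, the Clock call held in 65 and the Rorb call in 42. Over 15 other settings they held in 11 and 10. Npas2 did not pass by the cosine (limma, adjusted p = 0.0897). Its distance from peak to trough was 0.29, beside a range of 0.49 between the 4 times. With 4 times a day little of any other shape can be seen.

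Npas2, which pairs with BMAL1 in place of CLOCK, was lowest in the middle of the dark phase. Over the 4 groups it ran from 835 to 2049 (median 1292, n = 25) at ZT0, from 743 to 1455 (median 1108, n = 11) at ZT6, from 897 to 1546 (median 1149, n = 23) at ZT12 and from 643 to 1146 (median 1006, n = 10) at ZT18. The ranges overlap at all times, and the ZT18 mice fill the lower part of them. Npas2 was 0.49 ± 0.09 lower at ZT18 than at ZT0 (limma, adjusted p = 5.46e-04) and 0.36 ± 0.09 lower than at ZT12 (adjusted p = 0.00557). From ZT0 to ZT12, where Bmal1 fell, the Npas2 difference was -0.12 ± 0.07 (adjusted p = 0.216). Of all genes 9.62% were called between ZT18 and ZT0, and of the members Bmal1 was called besides Npas2, 0.40 ± 0.06 lower (adjusted p = 3.58e-06).

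The low Npas2 at ZT18 rests on mice of the third series. With the number series as a covariate the difference from ZT0 was -0.35 (limma, adjusted p = 0.203) and that from ZT12 was -0.21 (adjusted p = 0.494). Against ZT6, within that series, it was -0.27 ± 0.11 (adjusted p = 0.121), and -0.24 with the length index as a covariate, which passed (adjusted p = 0.0431). In TG mice on ALF, ZT6 values were 959, 1108, 1188 and 1455 and ZT18 values were 796, 801 and 1056, a difference of -0.41 ± 0.19 that did not pass (limma, adjusted p = 0.617, with 0.105% of all genes called). In TG mice on TRF, ZT6 values were 743, 1007, 1105 and 1406 and ZT18 values 1018, 1107 and 1146, a difference of 0.07 ± 0.19 (limma, adjusted p = 0.989, with 1.13% of all genes called). Of the 3 TG mice on TRF at ZT18 none was as low as the 2 lower mice on ALF, but at this time TRF against ALF was 0.31 with an interval from -0.09 to 0.72 (adjusted p = 0.9998).

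Clock, whose protein is the usual partner of BMAL1, differed less between times than single mice did within them. It ran from 2839 to 6553 (median 3988) at ZT0, from 2966 to 5113 (median 3686) at ZT6, from 2210 to 4499 (median 3475) at ZT12 and from 3019 to 4179 (median 3677) at ZT18, and all of these ranges overlap. From ZT0 to ZT12 the mean over the 4 groups was -0.22 ± 0.07 (limma, adjusted p = 0.0162), and by group it was -0.18 in NTG on ALF, -0.04 in NTG on TRF, -0.28 in TG on ALF and -0.39 in TG on TRF, with adjusted p of 0.142 or more. For this contrast 26.1% of all genes were called, 12.8% as lower at ZT12, and of the 5 members 3 were called, Bmal1, Clock and Rorb, each lower. The median over the 5 members was -0.22, beside 0.0022 over all genes. Without the 5 libraries of lowest correlation the Clock difference was -0.11 (adjusted p = 0.244), and with the length index as a covariate it was -0.10 (adjusted p = 0.172).

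Rorb, the ROR receptor best known from cortical layers and sensory pathways, was, like Clock, called lower at ZT12 over the 4 groups but within none of them. It ran from 590 to 1946 (median 959) at ZT0, from 608 to 970 (median 730) at ZT6, from 536 to 1114 (median 816) at ZT12 and from 702 to 933 (median 751) at ZT18. The upper end of ZT0 stands out, and its 4 highest values, 1946, 1827, 1628 and 1502, belong to mice A, B, C and D. Rorb was 0.29 ± 0.10 lower at ZT12 than at ZT0 over the 4 groups (limma, adjusted p = 0.0259), a call lost without mouse C alone (adjusted p = 0.0501), without the 5 libraries (-0.11, adjusted p = 0.399) and with the length index as a covariate (-0.10, adjusted p = 0.282). It was lost as well with the astrocyte level as a covariate (-0.23, adjusted p = 0.0593) and with array weights (-0.17, adjusted p = 0.127). Within groups the difference was -0.35 in NTG on ALF, -0.21 in NTG on TRF, -0.25 in TG on ALF and -0.34 in TG on TRF, none of them called, with adjusted p from 0.303 to 0.902. ZT6 against ZT0 gave -0.37 ± 0.12 (adjusted p = 0.0245, with 15.9% of all genes called), and -0.25 without the 5 libraries (adjusted p = 0.0907), while it passed with the length index as a covariate (-0.21, adjusted p = 0.0430). It did not pass when the number series was a covariate (-0.46, adjusted p = 0.146) or when the astrocyte level was (-0.30, adjusted p = 0.0646). That call was lost as well without the only NTG mouse on ALF at ZT6 (-0.34, adjusted p = 0.0574) or without the TG mouse on TRF at ZT6 that has the second lowest length index of all, -0.65 (-0.36, adjusted p = 0.0507).

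Rora, whose product is the classical activator of Bmal1 in this arm of the loop, showed no difference between times that passed. It ran from 163 to 836 (median 327.97) at ZT0, from 225 to 556 (median 301.6) at ZT6, from 165 to 478 (median 298) at ZT12 and from 167 to 435 (median 292) at ZT18. The medians lie close together, the ranges overlap at all times, and the highest mouse is at ZT0. ZT12 against ZT0 averaged -0.20 ± 0.13 (95% confidence interval -0.46 to 0.06, limma, adjusted p = 0.258), made of -0.48 in NTG on ALF, 0.27 in NTG on TRF, -0.45 in TG on ALF and -0.15 in TG on TRF. A change of Rora up to the size of that of Clock or Rorb is thus inside its interval.

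The levels of Clock, Npas2, Rora and Rorb ran with the balance between long and short transcripts, more than that of Bmal1. Over the 69 mice the length index correlated with Rorb at r = 0.83, with Clock at 0.75, with Rora at 0.71, with Npas2 at 0.61 and with Bmal1 at 0.16. Within groups and times these were 0.80, 0.73, 0.73 and 0.66, and for Bmal1 the sign turned, to -0.31. All 5 points of each mouse share a library, and Clock (13.7 kb of exon), Rora (13.1 kb) and Rorb (11.1 kb) are themselves among the 1377 long genes. Mice A and B were the 2 highest for Rora (836 and 760) and for Rorb, mouse B was the highest for Clock (6553), and mouse E was the lowest for Clock (2210) and Rorb (536). For Npas2, with 4.79 kb of exon, mouse E was on the high side instead, seventh from the top at 1508. At ZT0 the index averaged 0.13 ± 0.39 (SD, n = 25), at ZT6 -0.07 ± 0.26 (n = 11), at ZT12 -0.07 ± 0.21 (n = 23) and at ZT18 -0.11 ± 0.11 (n = 10). With the index as a covariate the time test called Bmal1 (limma, adjusted p = 2.11e-16) and Npas2 (adjusted p = 2.94e-04) but neither Rorb (0.108) nor Clock (0.120), and the same 2 were called without the 5 libraries (adjusted p = 4.96e-17 and 0.00122, beside 0.154 and 0.365). Of all genes 36.4% were called with the index as a covariate. What set this balance was not tested.

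**Figure D3:**
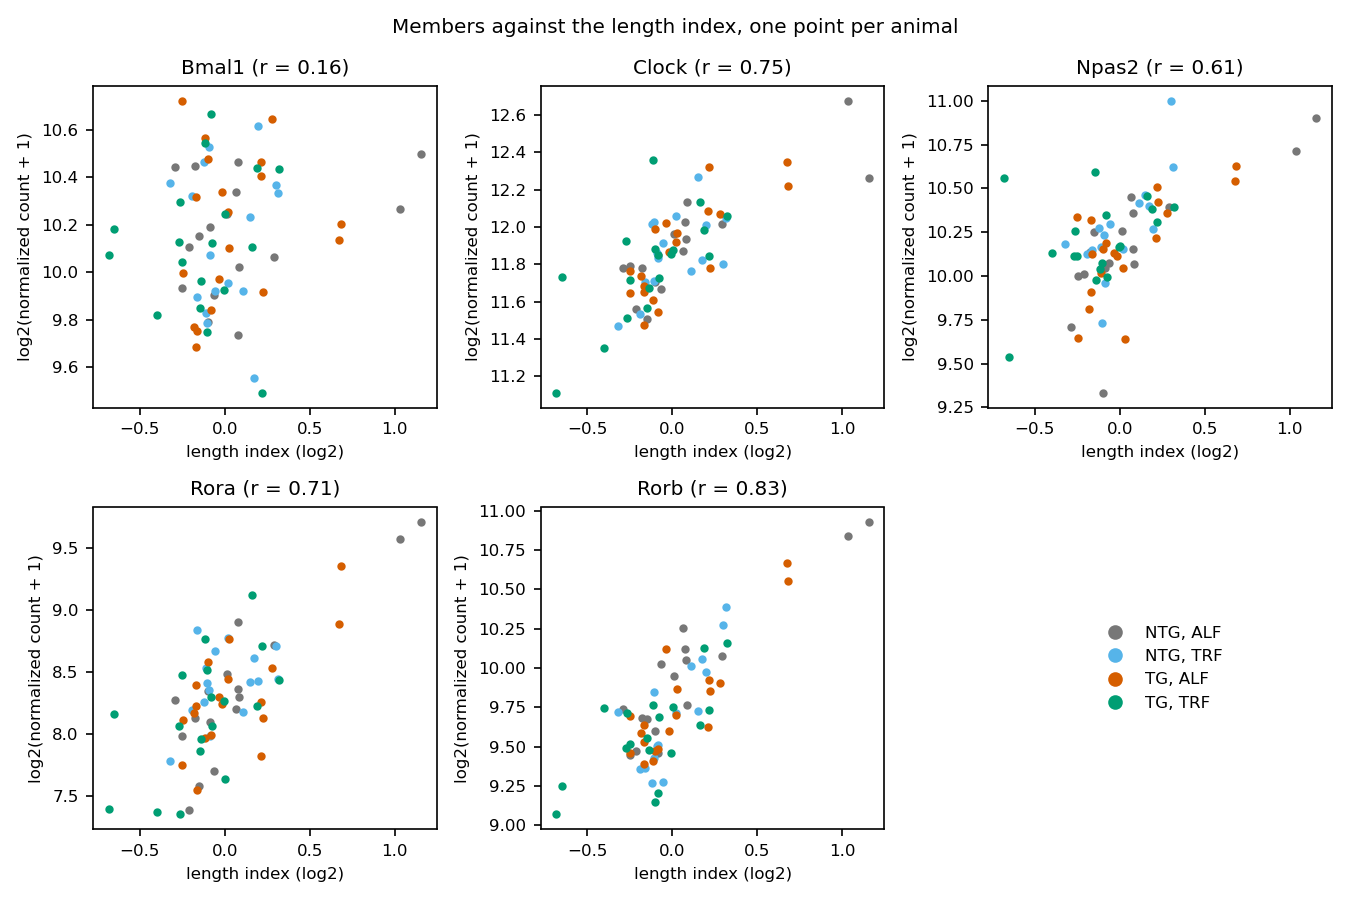
Log2 level of each gene against the length index of the same library, 1 point per mouse, with Pearson's r over 69 mice. Rorb, Clock and Rora climb with the index and the 4 mice beyond 0.6 sit at or near the top, whereas for Bmal1 r is 0.16 (-0.31 within groups and times).

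Cell type markers moved with some of these genes too. Each r for markers is taken with the mean log2 level of the list. For 10 astrocyte markers, which summed to between 126427 and 277754 over the mice, r was 0.51 with Rora, 0.50 with Rorb and 0.47 with Clock. Within groups and times it was -0.50 with Bmal1. The 8 markers of cortical layers next to the hippocampus, summing to between 8834 and 16149, correlated with Npas2 at 0.59 and with Rorb at 0.49. The 8 interneuron markers went the other way, at -0.58 with Clock, -0.57 with Rorb and -0.53 with Rora. The 7 oligodendrocyte markers gave -0.31 with Bmal1 and -0.38 with Npas2 over all mice, and -0.44 and -0.42 within groups and times. The 6 endothelial markers all varied with time (6 of 6 called, beside 35.6% of all genes). At ZT12, 2 were higher and 4 lower than at ZT0, with a median of -0.47. Their sum ran from 3311 to 8928 over the mice. Their mean log2 level correlated with Bmal1 at 0.32 over all mice and at -0.25 within groups and times. These are descriptions over 69 libraries that share composition and depth. The part of the layer, interneuron, oligodendrocyte and endothelial markers in the results was not tested. With the astrocyte level as a covariate Rorb lost its calls for ZT6 and for ZT12 against ZT0 and by the cosine (adjusted p = 0.0895), and kept that of the 4-time test (adjusted p = 0.0399).

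Neither feeding nor genotype passed the test for any of the 5 genes. Averaged over times, TRF against ALF in TG gave -0.09 ± 0.05 for Bmal1 (95% confidence interval -0.19 to 0.02, limma, adjusted p = 0.369), -0.18 ± 0.11 for Rorb (adjusted p = 0.368) and 0.04 ± 0.08 for Npas2 (adjusted p = 0.827). In NTG it gave -0.01 ± 0.06 for Bmal1 (-0.13 to 0.10, adjusted p = 0.976), -0.21 ± 0.12 for Rorb (adjusted p = 0.746) and 0.11 ± 0.09 for Npas2 (adjusted p = 0.854). Of all genes 0.540% were called in TG and 0.0281% in NTG. TG against NTG ran from -0.13 (Rorb) to 0.03 (Bmal1) on ALF and from -0.26 (Rora) to -0.04 (Bmal1) on TRF, with adjusted p of 0.736 or more, where 0.189% and 0.133% of all genes were called. The interaction of genotype and feeding was -0.07 ± 0.08 for Bmal1 (adjusted p = 0.996) and was called for no gene (0%), while 745 genes had an unadjusted p under 0.05. The comparisons share their groups, so they are not independent of each other. Choroid plexus markers differed most in the same contrasts, with medians over 12 genes of -1.47 for TRF against ALF in TG and 1.80 for TG against NTG on ALF, none of these 12 called. With the choroid plexus level as a covariate no member was called for feeding, genotype or their interaction either.

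Of the feeding comparisons of the 5 genes, averaged or at a single time, the lowest unadjusted p in limma (0.00588) was that of Bmal1 in TG mice at ZT6, in the middle of the light phase and the fast. The 4 mice on ALF had 1274, 1293, 1352 and 1411 normalized counts. The 4 mice on TRF had 998, 1055, 1099 and 1162. The groups do not overlap, which held for 3.30% of all genes at this time, 1.70% with TRF lower. The difference was -0.31 ± 0.11 (95% confidence interval -0.52 to -0.09), but it did not survive adjustment (limma, adjusted p = 0.531), and no gene of the 14260 was called at ZT6 (0%, with 1147 genes at an unadjusted p under 0.05). It kept its direction in every alternative run, from -0.35 to -0.25 over 15 other settings and from -0.34 to -0.27 over the 69 fits that left out 1 mouse. Summed astrocyte markers overlapped between these groups, at 168707 to 204501 on ALF and 158149 to 203347 on TRF. Summed endothelial markers did not overlap and were lower on TRF, like Bmal1, at 6814 to 7883 on ALF and 5248 to 6782 on TRF, and their part in the difference was not tested. The length index also overlapped, at -0.17 to 0.22 on ALF and -0.65 to 0.16 on TRF.

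At the other times Bmal1 in TG mice differed less between feedings, by -0.02 at ZT0, -0.03 at ZT12 and -0.06 at ZT18 (TRF minus ALF), and all 4 adjusted p-values were 0.531 or more. At ZT12 0.00701% of all genes were called and at ZT0 and ZT18 none (0%), with 1208 and 225 at an unadjusted p under 0.05 in limma. At ZT18 the mice on ALF had 1021, 1098 and 1220 and those on TRF 970, 1114 and 1116. In TG on ALF, ZT18 against ZT6 was thus -0.26 ± 0.12 without overlap (which held for 5.67% of all genes in this direction), and in TG on TRF it was -0.02 ± 0.12 with overlap. Neither passed (limma, adjusted p = 0.575 and 0.997). Whether the feeding difference itself varied over the 4 times was tested by an F test, chosen after the values were seen. It did not pass for Bmal1 (limma, unadjusted p = 0.166, adjusted p = 0.9999) or any other member, nor for any gene (0%, with 239 at an unadjusted p under 0.05). The cosine fitted to each group put the Bmal1 peak at ZT 1.6 ± 0.6 h in TG on ALF and 0.05 ± 0.7 h in TG on TRF, with 2.4 ± 1.1 h in NTG on ALF and 2.0 ± 0.8 h in NTG on TRF. The NTG peaks rest on 1 mouse at ZT6 and 2 at ZT18 on ALF, and on 2 at each of these times on TRF. The test of a difference between the TG curves did not pass either (unadjusted p = 0.249, adjusted p = 0.99997).

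**Figure D4:**
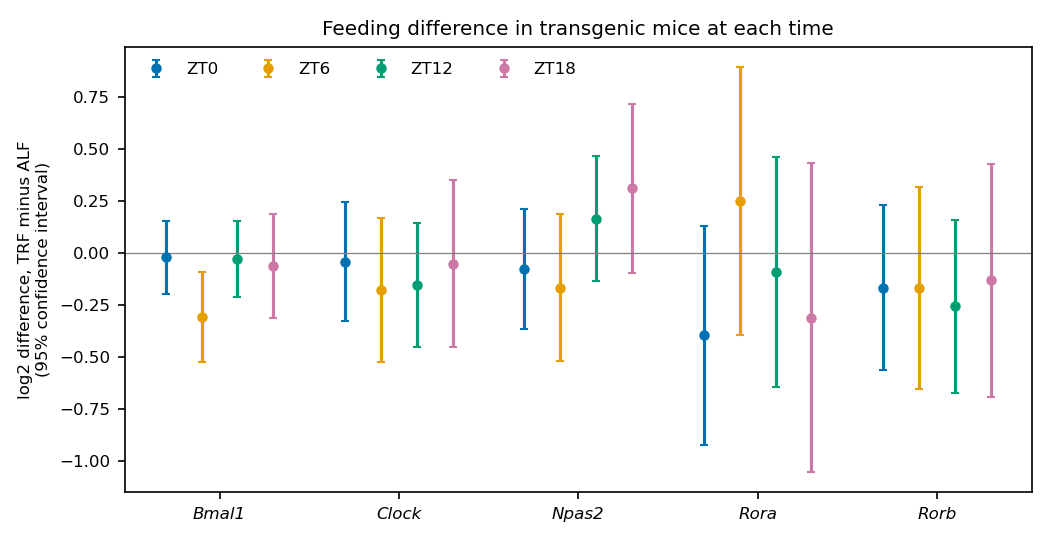
Log2 difference between TRF and ALF in TG mice at each time of sacrifice, with 95% confidence intervals. For Bmal1 the interval at ZT6 lies below 0 (-0.52 to -0.09) before adjustment for the genes tested, and all other intervals in the plot include 0.

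Among the single-time comparisons of NTG mice, Bmal1 differed between feedings by 0.06 (95% confidence interval -0.11 to 0.23) at ZT0 and by -0.12 (-0.30 to 0.05) at ZT12, and no gene was called (0%, with 1561 and 272 at an unadjusted p under 0.05 in limma). For genotype at a single time, Rora was the member furthest from 0, in mice on TRF at ZT12, where TG mice had 165, 168, 232.1, 365 and 418 and NTG mice had 290 to 457 (median 399, n = 6). The groups overlap, and the difference of -0.63 ± 0.27 did not pass (limma, unadjusted p = 0.0253, adjusted p = 0.732, with 0.0491% of all genes called). Of the 2 lowest of these mice, with 165 and 168, the second is mouse E, the library with the lowest length index. The first had an index of -0.40. With the length index as a covariate the difference was -0.38 (limma, adjusted p = 0.708), and over 15 other settings it ran from -0.74 to -0.21.

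On a list of REV-ERB and PAR bZIP genes with Nfil3, Bhlhe40 and Bhlhe41, 8 of 8 varied with time, where 35.6% of all genes did. With the length index as a covariate 7 of the 8 did, beside 36.4% of all genes. Dbp, an output gene that BMAL1 pairs drive directly, was 1.49 higher at ZT12 than at ZT0 (limma, adjusted p = 9.84e-24, mean over the 4 groups on the log2 scale), and Nr1d2, which encodes the Bmal1 repressor REV-ERBβ, was 0.50 higher (adjusted p = 6.67e-15). Nr1d1, which encodes REV-ERBα, was 0.24 higher (adjusted p = 3.48e-06). Nfil3, a repressor of PAR bZIP targets, moved with Bmal1 and was 0.81 lower (adjusted p = 1.72e-10). In all, 5 of the 8 were higher at ZT12 and 1 was lower, where 26.1% of all genes were called, 12.8% as lower. The median was 0.21 beside 0.00 over all genes.

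All 6 period, cryptochrome and Ciart genes, the repressors of the BMAL1 pairs, varied with time and were higher at ZT12 than at ZT0, with a median of 0.43. Of all genes 35.6% varied with time, and 26.1% were called between ZT0 and ZT12. Ciart, which encodes a repressor that binds BMAL1, was 1.49 higher (limma, adjusted p = 2.15e-23), Per2 0.61 higher (adjusted p = 1.07e-07), Per3 0.53 higher (adjusted p = 8.89e-10) and Cry1 0.24 higher (adjusted p = 1.29e-04). By time means, genes of the loop differed in the time at which they were highest and lowest. Against ZT0, Nr1d1 was at 0.34 ± 0.05 at ZT6, 0.24 ± 0.04 at ZT12 and -0.0045 ± 0.05 at ZT18, while Bmal1 was lowest at ZT12. Cry1 was lowest at ZT6 (-0.18 ± 0.06) and highest at ZT18 (0.32 ± 0.06). All mice of ZT6 and ZT18 are of the third number series. The order of these times thus cannot be told apart from a difference between number series.

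**Figure D5:**
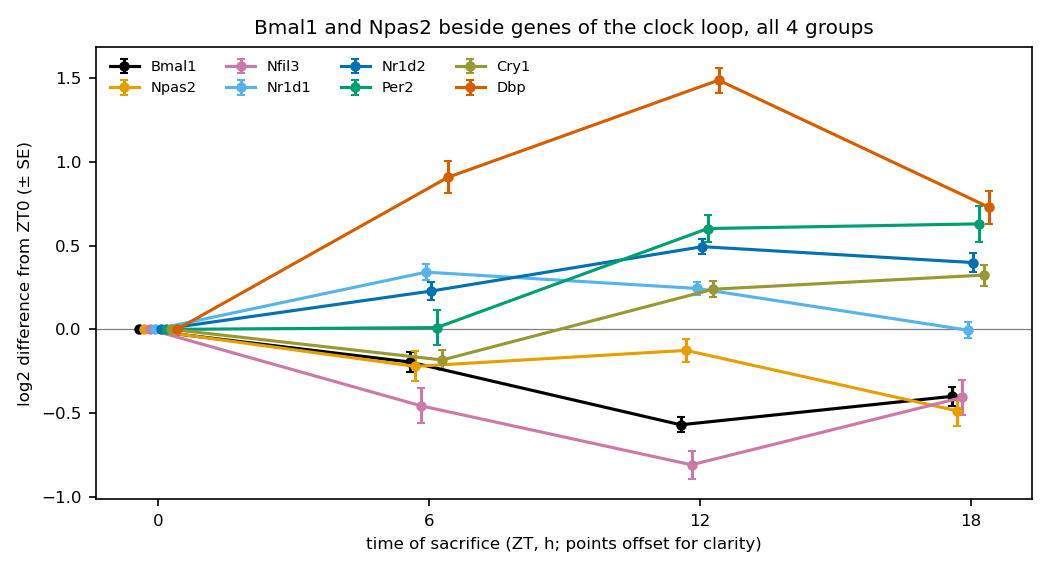
Log2 difference from ZT0 at ZT6, ZT12 and ZT18 over all 4 groups, with the SE, for Bmal1, Npas2 and 6 genes of the loop. All mice of ZT6 and ZT18 are of the third number series. Bmal1 and Nfil3 reach their lowest point at ZT12 (-0.57 and -0.81), where Dbp and Nr1d2 are highest (1.49 and 0.49), and Npas2 is lowest at ZT18 (-0.49).

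The members' partners and relatives varied less uniformly. Of 13 measured bHLH-PAS relatives, the family to which BMAL1, CLOCK and NPAS2 belong, 6 varied with time, where 35.6% of all genes did. With the length index as a covariate 8 of the 13 did, beside 36.4% of all genes. Hif3a, a hypoxia-inducible factor subunit, was 1.89 higher at ZT12 than at ZT0 (limma, adjusted p = 1.53e-13) and Npas4, an immediate-early gene of neuronal activity, fell by 1.23 (adjusted p = 5.91e-10). Npas3 (-0.14) and Arnt (-0.07) varied over the 4 times (adjusted p = 0.00113 and 0.0299) without passing between ZT0 and ZT12. The median of the family was -0.07 and its calls between ZT0 and ZT12 were 2 higher and 1 lower, where 26.1% of all genes were called.

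Of 11 coregulators through which ROR and REV-ERB receptors act, 4 varied with time, a share near the 35.6% of all genes. Hdac3, the deacetylase that REV-ERB recruits, was 0.20 higher at ZT12 than at ZT0 (limma, adjusted p = 6.74e-05), and its corepressor partner Ncor1 was 0.19 lower (adjusted p = 0.00942). Med1, a mediator subunit that binds nuclear receptors, varied over the 4 times (adjusted p = 0.0187) with a difference of -0.16 that did not pass between ZT0 and ZT12. Of 20 kinases, ubiquitin ligases and cofactors of the clock, 9 varied with time, again beside 35.6% of all genes. With the length index as a covariate 10 of these 20 and 4 of the 11 coregulators did, beside 36.4% of all genes. At ZT12, 3 of the list were higher and 4 lower than at ZT0, where 26.1% of all genes were called. Usp2, a deubiquitinase, was 0.33 higher (adjusted p = 6.61e-09), Tipin 0.19 higher (adjusted p = 0.0220) and Fbxw11 0.07 lower (adjusted p = 0.0291). No gene of these 5 lists was called for feeding or genotype averaged over times.

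The genes whose levels ran most like each member's were taken by Pearson's r over the 69 mice, whose libraries share the length balance. These r values include the differences between times. For Bmal1 the lowest were the clock genes Nr1d2 at r = -0.85 and Dbp at -0.83, and the mitochondrial folate enzyme gene Mthfd1l at -0.82. Within groups and times the lowest for Bmal1 were instead Aldh1l1 at -0.67, Pld1 at -0.65 and Abat at -0.64. The rest of the values given here are again over the 69 mice. For Bmal1 the highest were Hnrnpc, Lmcd1, Glt8d2, Khdrbs3 and Rbm28, at 0.68 to 0.70. For Clock the highest were Arhgap5, Usp9x, Wnk3, Ipo7 and Ranbp2, at 0.93, and the lowest Matk, Npdc1 and Reep2, at -0.89 to -0.88. For Npas2 they were Arhgap32, Ttc7b, Lrrc4c, Ptprn2 and Phactr1, at 0.78 to 0.80, and Sncg, Ndufb2 and Psph, at -0.73. For Rora they were Ptpn4, Ptprt, Sesn3, Dnajb14 and Ptar1, at 0.80 to 0.84, and Scamp3, Mrps18a and Snrpa, at -0.76. For Rorb they were Ank2, Marf1, Adam22, Atxn1 and Arhgap35, at 0.83 to 0.86, and Mrps26, Uqcr10 and Hint1, at -0.85. None of the period, cryptochrome, REV-ERB or PAR bZIP genes is among these for Clock, Npas2, Rora or Rorb.

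Among the 5 genes themselves, Clock and Rora correlated at r = 0.73, Clock and Rorb at 0.59, Npas2 and Rorb at 0.53 and Rora and Rorb at 0.52. Bmal1 correlated with the other 4 at 0.04 to 0.27, and within groups and times at -0.39 to -0.0032. Of its 2 partner genes, Clock gave 0.27 and Npas2 0.23.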

How the data were processed

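Hippocampal poly-A RNA was sequenced in paired reads, per the labels' protocols. Reads were trimmed with Trimmomatic, per the labels' protocols. HISAT2, featureCounts, DESeq2 and GRCm38 are named in the submitters' processing notes, and versions and annotation are not given in the sources used here. The deposited values are a normalized signal, in which the authors scaled each library's read counts by 1 factor. Within each library 100% of values were whole multiples of 1 step (within 0.01 of a step), which gave the depths. The lowest gene mean was 40.8, so the table had been filtered by a rule not stated.

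Groups and times came from the labels. The 70 libraries were taken as 69 mice: library 232R was read as a repeat of 232 and averaged with it, which the labels do not state. Tests were limma 3.58.1 in R 4.3.3 on log2(value + 1), 2-sided, with trended and robust variance estimates, on 14260 genes. A filter on a mean of 10 removed no gene. All mice shared 1 estimate of spread. Time, feeding and genotype were fitted with 4 group means and time terms, and single-time and within-group contrasts with 16 means. F-test sizes are the range between times. Folds are differences on the log2(value + 1) scale. Scripts were tested on simulated data. Exon lengths (96.5% of genes matched) came from GENCODE M21. The members, lists and tests were chosen with earlier results of these data known. For each member the 5 most and 3 least correlated genes are named, and from each list at most 4, by the smallest p of the time test. Some genes this rule names are not reported here. Alternatives were pseudocount, filters, scaling, the 232R reading, variance settings, weights, covariates and left-out mice.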

Additional observations from a re-analysis of the deposited data

Results flagged for a closer look

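In 50 sets of 4 to 7 mice (5 genes by 10 groups and times), 2 held a mouse far from the others by Dixon's criterion, where chance gives about 1 in 20. Bmal1 was 750 in 1 NTG mouse on TRF at ZT12, with the next mouse at 909. Clock was 4496 in 1 TG mouse on TRF at ZT6, with the next at 3401, and Rora was highest of its group in the same mouse (556). No difference between groups passed its test.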

How the results depend on the processing

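Bmal1 kept its direction and its call for the time test, and for ZT12 against ZT0 over the 4 groups and within each group, in the 16 or 17 other settings run for each and in all 69 fits that left out 1 mouse. Other time calls did not. Of the 3 members called over the 4 times, 1 was called in TG mice only and with length index and number series as covariates together (chosen after seeing the data, as was the length index alone). Of the 3 called for ZT12 against ZT0 over the 4 groups, 1 was called when the 5 libraries of lowest correlation were left out, with the length index and with both covariates. Of the 3 called by the cosine, 1 was called with array weights, when the 5 libraries were left out and with the length index, and leaving out 1 mouse gave 1 to 4, with 1 without mouse B, C or E. In the main fits 35.6%, 26.1% and 30.2% of all genes were called in these 3 tests. The shares under the settings named here are not given, so these counts do not set the members apart from other genes. The cause was not tested.

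Values that turned sign were all of comparisons that did not pass. With array weights, Bmal1 gave 0.0323 for ZT18 against ZT6 in TG on TRF, 0.0196 for TRF against ALF in TG at ZT12 and 0.13 for the feeding difference of the ZT12 to ZT0 change in TG. That last value was 0.0053 with equal totals, 0.0221 with the number series, 0.0089 with the choroid plexus level, 0.0683 without the 5 libraries and 0.0258 with both covariates. Bmal1 also gave 0.0138 with equal totals for ZT18 against ZT6 in TG on TRF and 0.0018 for feeding in NTG averaged over the 4 times. With the astrocyte level, TG against NTG on ALF was -0.0577 for Bmal1 and 0.0369 for Rorb. Npas2 gave 0.0887 for ZT6 against ZT0 and 0.0225 for ZT12 against ZT0 in NTG on ALF with both covariates, and for ZT12 against ZT6 -0.0529 with the number series and -0.0972 with both. Rorb gave 0.0826 for ZT12 against ZT0 in TG on ALF without the 5 libraries. Rora gave, for ZT12 against ZT0 over the 4 groups, 0.0078 without the 5 libraries, 0.0288 with the length index and 0.0444 with both covariates, and in TG on TRF 0.0640 with the number series, 8.25e-05 with the astrocyte level, 0.113 with the length index and 0.229 with both.

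Leaving out 1 mouse, Bmal1 ranged from -0.0329 to 0.0060 for feeding in NTG, from -0.0834 to 0.0341, -0.0952 to 0.0499 and -0.121 to 0.0073 for feeding in TG at ZT0, ZT12 and ZT18, from -0.0532 to 0.0501 for ZT18 against ZT6 in TG on TRF, and for the difference in the ZT12 to ZT0 change from -0.0762 to 0.0689 between feedings in TG and from -0.109 to 0.0363 between genotypes on TRF. Npas2 ranged from -0.0923 to 0.214 for ZT18 against ZT6 in TG on TRF, and Rora from -0.332 to 0.0015 for ZT12 against ZT0 in TG on TRF. Of 1168 single values under other settings, 24 turned sign and 1091 kept direction and side of the threshold. No paired analysis was possible because animal numbers are unique to a mouse. Groups at ZT6 and ZT18 held 1 to 4 mice, which limits the precision there.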
